A study of Mus musculus with 4 samples.

Results

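The genes described here are 8 members of the neurexin system of synaptic adhesion: the neurexins Nrxn2 and Nrxn3, the neurexophilins Nxph1, Nxph2, Nxph3 and Nxph4, and the neuroligins Nlgn1 and Nlgn3. They are 8 of 55471 gene rows in the deposited count table and were taken by gene name. The list was chosen by gene family with the members' levels and differences between the 2 cell fractions already known, so the members' levels and differences are given as a description. No p-value is given for a member, and nothing is read from the count of members past the threshold of the fit over all genes. RNA had been sequenced from retinal amacrine cells, which are mostly inhibitory interneurons, sorted from C57BL6 mice at postnatal days 6 to 7. All animals carried the allele Gbx2-CreERT2-IRES-EGFP, in which the Gbx2 locus drives EGFP and a Cre recombinase that acts only after induction, together with the Ai9 reporter, which turns on tdTomato for good once Cre has cut it. Every sorted cell had tdTomato. GFP-negative cells (cell type 1 of the series) and GFP-positive cells (cell type 2) were collected apart, and 2 libraries of each were analysed. They are called neg2 and neg6 (GFP-negative replicates 2 and 6) and pos2 and pos3 (GFP-positive replicates 2 and 3) from here on, and values are given in that order. The time of induction is not stated in the labels.

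Neurexins are presynaptic membrane proteins whose extracellular domains bind many partners across the synaptic cleft. Neuroligins are their best known postsynaptic receptors, with neuroligin 1 typical of excitatory synapses and neuroligin 3 found at both excitatory and inhibitory ones. Neurexophilins are a family of small secreted glycoproteins that includes tight binders of the long alpha form of neurexins. Each neurexin gene makes alpha and beta forms from separate promoters and many splice forms, and the counts analysed here add all forms of a gene together.

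Because the neurexophilins are paralogs, the sequence they share bears on whether reads could be assigned to the wrong member. Between the 4 coding sequences, identity over aligned bases ran from 57.0% for Nxph2 with Nxph4 to 66.2% for Nxph1 with Nxph2. The longest run shared without a mismatch was 24 bases, between Nxph3 (chr11:95510871-95510894, minus strand, GRCm38) and Nxph4 (chr10:127526143-127526166, minus strand). For Nxph1 the longest such run, 17 bases, was shared with Nxph3 (chr6:9247385-9247401, plus strand, and chr11:95511273-95511289, minus strand). Both runs lie in coding exons and are shown whole, from the GENCODE vM21 transcripts.
Nxph3 and Nxph4: actggtgcagaaggtgtgcccaga
Nxph1 and Nxph3: tttggatggggtgattt
The coding sequences of Nrxn2 and Nrxn3 were 67.2% identical and those of Nlgn1 and Nlgn3 69.2%, each pair with a longest shared run of 23 bases. The sources used here do not say how reads that map to more than 1 place were counted.

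Total counts per library were 41040667 to 44689917. The labels were checked on Gbx2, which stood at 28.7 and 55.5 CPM (counts scaled to a common library size, after correction by the trimmed mean of M values, TMM) in the GFP-negative and at 602 and 496 CPM in the GFP-positive libraries. The amacrine transcription factor gene Pax6 was at 1469 and 2245 CPM in neg2 and neg6 and at 1972 and 1286 CPM in pos2 and pos3, so the fractions overlapped. None of 9 amacrine markers, which include Pax6 and the transmitter genes Slc32a1, Gad1, Gad2 and Slc6a9, was at 0 throughout. Their sum was 3740 and 5635 CPM in neg2 and neg6 and 2669 and 1799 CPM in pos2 and pos3. Photoreceptor RNA differed between libraries: 14 rod markers, none of them at 0, summed to 8460 and 2083 CPM in neg2 and neg6 and to 9740 and 16190 CPM in pos2 and pos3. In such bulk samples fewer cells of a type and less RNA per cell cannot be told apart.

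Nxph1 had the largest fitted log2 fold change of the 7 members that passed the filter on low counts. The gene lies on chromosome 6 at 8948431 to 9249032 (ENSMUSG00000046178, plus strand, GRCm38) and has 4 separate exon blocks over 3 annotated transcripts. It had 367 and 140 counts in neg2 and neg6, and 3437 and 2613 counts in pos2 and pos3. On the CPM scale these were 8.77 and 3.91 against 75.2 and 54.9. Both GFP-positive libraries were therefore far above both GFP-negative ones, with means of 65.1 ± 14.3 and 6.34 ± 3.44 CPM (SD; every fraction has n = 2), a 10.3-fold ratio. The fitted log2 fold change, GFP-positive over GFP-negative, was 3.35 ± 0.46 (standard error, edgeR). Libraries neg2 and pos2 had rod marker sums close to each other, 8460 and 9740 CPM, and amacrine marker sums of 3740 and 2669 CPM. Between these 2 libraries, 1 of each fraction, Nxph1 differed 8.57-fold, and the part of rod or amacrine RNA in the difference was not tested. Leaving out each library in turn gave log2 fold changes of 2.89 to 4.00.

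Since Nxph1 had the largest fitted log2 fold change, its promoter is shown as RefSeq gives it for GRCm38.p6, chr6:8949769-8950068, plus strand, from 250 bases before the RefSeq start to 50 after it. Capitals mark GGGCGG, the core of the GC box, on either strand.
Nxph1: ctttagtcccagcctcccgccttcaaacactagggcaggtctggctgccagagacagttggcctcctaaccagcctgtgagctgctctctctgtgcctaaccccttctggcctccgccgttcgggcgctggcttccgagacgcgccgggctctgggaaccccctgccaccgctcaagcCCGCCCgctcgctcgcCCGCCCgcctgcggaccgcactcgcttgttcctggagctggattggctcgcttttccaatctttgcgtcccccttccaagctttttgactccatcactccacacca
The window held 2 matches to GGGCGG, a motif present in 35.7% of 32851 RefSeq promoter windows of the same length, and 21 CpG dinucleotides against a median of 7 over those windows. TAATTA, the core bound by many homeodomain factors, reads the same on both strands, is present in 5.29% of windows and was not among these letters. TATAAA and CACGTG, searched on both strands, were not there either, and are present in 13.6% and 7.15% of windows. Each motif was counted by itself, whether or not it overlapped another. Of the 8 members, 4 matched the promoter table. These are matches of letters in this window and say nothing about binding. The GENCODE gene begins upstream of the window, at 8948431, and the sequence around that start was not searched.

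Nxph4 had the highest level per kb of exon of the members in every library. The gene (ENSMUSG00000040258, chromosome 10, 127525473 to 127534559, minus strand) has 2 exon blocks and 1 annotated transcript. Its counts were 8841 and 14048 in neg2 and neg6 and 5308 and 4731 in pos2 and pos3, or 211 and 392 against 116 and 99.5 CPM. The GFP-negative libraries were thus both higher, without overlap, and the GFP-positive libraries lay close together. Means were 302 ± 128 and 108 ± 11.7 CPM, a ratio of 2.80, and the log2 fold change was -1.49 ± 0.38 (standard error, edgeR). The size rested in part on neg6, without which the log2 fold change was -0.97. That library also had the lowest rod and the highest amacrine marker sum, and the part of either in the Nxph4 difference was not tested. Between neg2 and pos2, with rod marker sums of 8460 and 9740 CPM, the Nxph4 level in pos2 was 0.549 of that in neg2. Per kb of exon, Nxph4 was above 98.4% and 99.0% of the genes tested in neg2 and neg6 and above 96.8% and 95.8% in pos2 and pos3.

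The neurexophilin makeup of the fractions therefore differed in ratio. Within a library, the level of Nxph4 per kb of exon was 68.4 and 284.7 times that of Nxph1 in neg2 and neg6. It was 4.38 and 5.14 times that of Nxph1 in pos2 and pos3. A ratio taken within a library does not depend on its total count. Dividing by the longest transcript in place of all exons lowered these ratios to 40.5 and 168.6 in the GFP-negative and 2.60 and 3.04 in the GFP-positive libraries, since Nxph1 has 4753 bases of exon but a longest transcript of 2815.

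**Figure D1:**
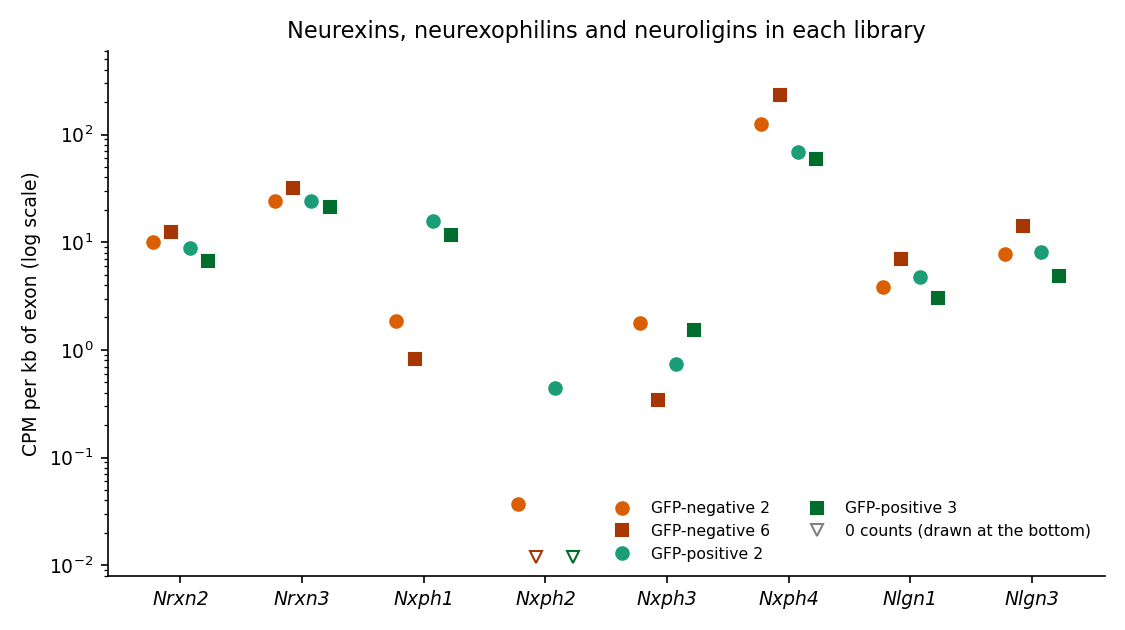
Level of each member in CPM per kb of exon (log axis), one point per library, with GFP-negative libraries in orange and brown and GFP-positive libraries in greens. Nxph4 is the highest member in all 4 libraries, and Nxph1 is the member whose 2 GFP-positive points stand above its 2 GFP-negative points. Open triangles at the bottom are libraries with 0 counts of Nxph2.

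The other 2 neurexophilin genes were low. Nxph3 (ENSMUSG00000046719, chromosome 11, 95509845 to 95514570, minus strand) had 156 and 26 counts in neg2 and neg6 and 71 and 154 in pos2 and pos3. These came to 3.73 and 0.73 CPM against 1.55 and 3.24 CPM, so both GFP-positive libraries lay between the GFP-negative ones. Its log2 fold change was 0.07 ± 0.87 (standard error, edgeR), and its sign depended on single libraries: it was -0.63 without neg6 and -0.55 without pos3. The library with the fewest Nxph3 counts was the one with the most Nxph4 counts. That library, neg6, also had the lowest rod marker sum, and the part of rod RNA in the Nxph3 values was not tested.

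Nxph2 (ENSMUSG00000069132, chromosome 2, 23321246 to 23401973, plus strand) was found in part of the libraries. It had 4 counts in neg2, 52 in pos2 and 0 in neg6 and pos3. Each fraction thus had a library with counts and a library at 0. A count of 0 allows up to 3 counts, or 0.0838 CPM in neg6 and 0.0631 CPM in pos3, counting error only. The single clear value was 1.14 CPM, and Nxph2 was the member that did not pass the filter on low counts.

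The neurexins themselves differed less between the fractions. Nrxn3 (ENSMUSG00000066392, chromosome 12, 88722876 to 90334935, plus strand) had 12859 and 14250 counts in neg2 and neg6 and 13993 and 12722 in pos2 and pos3. In CPM these were 307 and 398 against 306 and 268. The fractions touched without overlapping, with pos2 at 0.996 of neg2, neg6 the highest and pos3 the lowest. Means were 353 ± 64.0 and 287 ± 27.2 CPM (log2 fold change -0.30 ± 0.33, standard error, edgeR), a difference near the spread between replicates. Nrxn3 was the second member in order of level per kb in both fractions, above 85.1% to 88.2% of tested genes.

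Nrxn2 (ENSMUSG00000033768, chromosome 19, 6418731 to 6544169, plus strand) stood at 138 and 172 CPM in neg2 and neg6 and at 122 and 92.2 CPM in pos2 and pos3. Both GFP-positive libraries were lower, by a small margin for the replicate 2 libraries. The log2 fold change was -0.53 ± 0.32 (standard error, edgeR), and -0.77 to -0.35 with a library left out. Per kb of exon, Nrxn3 was 2.44 and 2.53 times Nrxn2 in neg2 and neg6 and 2.74 and 3.18 times in pos2 and pos3. The balance of the 2 neurexin genes was thus much alike in all libraries, unlike that of the neurexophilins.

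Neither neuroligin separated the fractions. Nlgn3 (ENSMUSG00000031302, chromosome X, 101299168 to 101325963, plus strand) was at 71.9 and 132 CPM in neg2 and neg6 and at 74.9 and 44.6 CPM in pos2 and pos3. Nlgn1 (ENSMUSG00000063887, chromosome 3, 25426215 to 26332460, minus strand) was at 51.9 and 92.8 CPM against 63.2 and 40.4 CPM. For both, neg6 was the highest library and pos3 the lowest, while neg2 and pos2 lay between them and within a ratio of 1.04 (Nlgn3) and 1.22 (Nlgn1). The log2 fold changes were -0.77 ± 0.40 for Nlgn3 and -0.48 ± 0.38 for Nlgn1 (standard error, edgeR). With a library left out they ran from -1.21 (without pos2) to -0.27 (without neg6) for Nlgn3 and from -0.90 (without neg2) to -0.0022 (without neg6) for Nlgn1. Per kb of exon, Nlgn3 was 1.60 to 2.06 times Nlgn1 over the 4 libraries.

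The same libraries marked the ends of the rod marker sums, which were lowest in neg6 (2083 CPM) and highest in pos3 (16190 CPM), and, in the opposite sense, of the amacrine marker sums. Nrxn2, Nrxn3 and Nxph4 also had their highest value in neg6 and their lowest in pos3. The part of rod RNA in the values of these genes and of the neuroligins was not tested. Nlgn3 is X-linked, and both sexes were sampled, per the series text. The Y-linked gene Ddx3y was at 89.8 to 168 CPM and the X-inactivation gene Xist had 0 counts in all libraries. A transcript of Gm21986 on the same strand covers 41.2% of the exon bases of Nlgn3, and that gene had 0 to 25 counts per library. The sources used here do not say how reads in exons of both genes were counted. The level of Nlgn3, and so its ratio to Nlgn1 and its place in the order, could be too low. An antisense gene, A830092H15Rik, covers 9.16% of those of Nlgn1 and had 1 to 10 counts. Genes on the opposite strand also cover parts of Nrxn2 and Nrxn3 exons, and the sources used here do not give the strand setting of the counting.

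**Figure D2:**
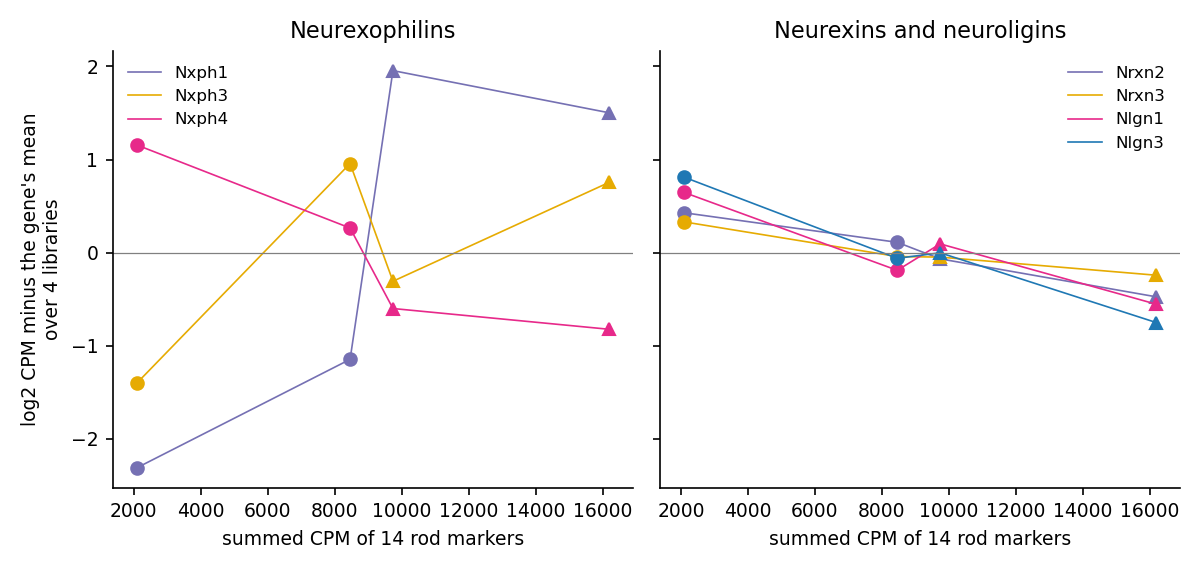
Each member's log2 CPM relative to its own mean over the 4 libraries (vertical axis) against the summed CPM of 14 rod markers in the library (horizontal axis), with circles for GFP-negative and triangles for GFP-positive libraries. Nrxn2, Nrxn3, Nxph4, Nlgn1 and Nlgn3 are highest at the lowest rod sum (2083 CPM) and lowest at the highest (16190 CPM). Nxph1 steps up between the libraries at 8460 and 9740 CPM. Nxph2 is left out because it had 0 counts in 2 libraries.

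By level per kb of exon, the order in GFP-negative cells was Nxph4 (180 ± 76.4 CPM per kb), Nrxn3 (28.0 ± 5.08), Nrxn2 (11.3 ± 1.75), Nlgn3 (11.0 ± 4.56), Nlgn1 (5.39 ± 2.15), Nxph1 (1.33 ± 0.72), Nxph3 (1.06 ± 1.01) and Nxph2. The libraries' values of Nrxn2 and Nlgn3 overlapped there, as did those of Nxph1 and Nxph3. In GFP-positive cells Nxph4 (64.4 ± 7.01 CPM per kb) and Nrxn3 (22.8 ± 2.16) again led, followed by Nxph1 (13.7 ± 3.01). Nxph1 thus moved from place 6 to place 3 of 8. Nrxn2 (7.77 ± 1.54), Nlgn3 (6.45 ± 2.31), Nlgn1 (3.86 ± 1.20), Nxph3 (1.14 ± 0.57) and Nxph2 came next, and of these Nrxn2 and Nlgn3 overlapped. With the longest transcript as the length, Nxph1 passed Nlgn3 in the order over all libraries and the other places held.

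An edgeR adjusted p of 0.05 was passed by 1.10% of the 17940 genes in the fit, and by 0.234% in the higher direction. Of the 7 tested members 1 passed, Nxph1. By DESeq2, Nxph4 passed as well (log2 fold change -1.51). Because the members were listed with this comparison known, nothing is read from these calls. Nxph1 was not past the threshold without neg6, without pos2, without pos3 or in a legacy quasi-likelihood fit of all 4 libraries. The CPM ranges of the fractions did not overlap for 4 of the 7 tested members (Nxph1 higher; Nxph4, Nrxn2 and Nrxn3 lower in GFP-positive cells), against 43.8% of all tested genes. The 7 tested members had a median log2 fold change of -0.48, and all tested genes one of 0.04.

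**Figure D3:**
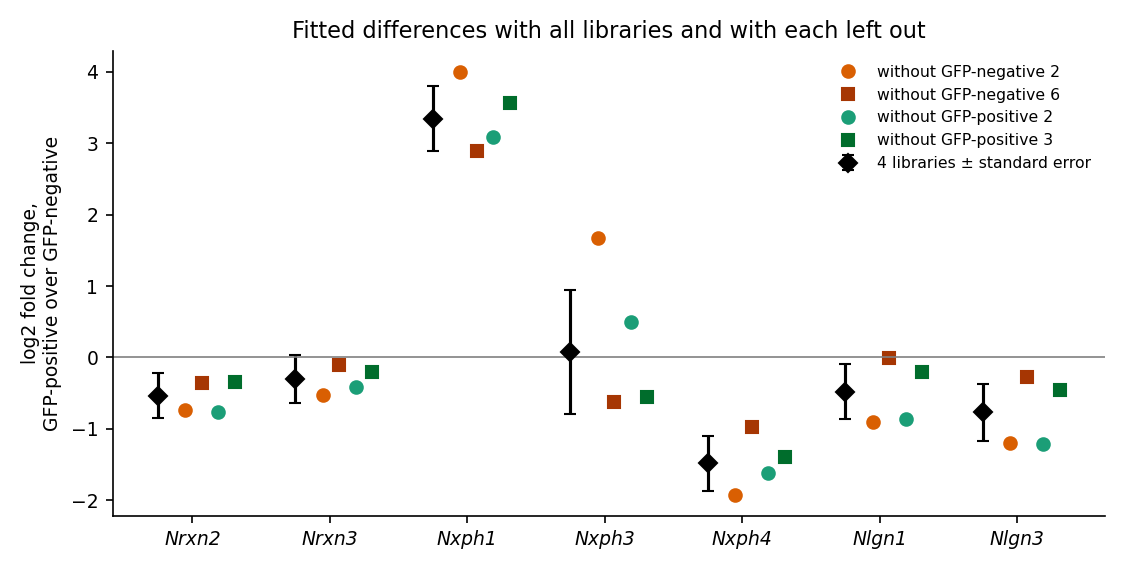
Fitted log2 fold changes, GFP-positive over GFP-negative, of the 7 tested members: black diamonds with standard error bars from all 4 libraries, coloured points with 1 library left out. Nxph1 stays between 2.89 and 4.00, Nxph3 takes both signs, and Nlgn1 reaches -0.0022 without neg6.

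The genes whose pattern over the 4 libraries was most like that of a member were sought among 14150 named genes, by the root mean square difference of log2 CPM centred on each gene's mean. For Nxph1 these were A3galt2 (0.09 log2 units), Col13a1 (0.19) and Lrp5 (0.29). Of these Col13a1, a membrane collagen gene, was well expressed, at 3.90 and 1.84 CPM in neg2 and neg6 and 33.8 and 33.6 CPM in pos2 and pos3. A3galt2 and Lrp5 stood at 0.0279 to 0.143 CPM in GFP-negative libraries, near or below what 3 counts are worth. For Nxph4 they were Cgref1 (0.04), Plcxd3 (0.04) and Elavl4 (0.05), a neuronal RNA-binding protein gene that stood at 292 and 502 CPM in neg2 and neg6 and 155.5 and 126.7 CPM in pos2 and pos3. For Nxph2, with 2 libraries at 0, the nearest were F5 (0.61), Slc17a8 (0.73) and Depp1 (0.90). Likeness over 4 libraries is a description of these libraries.

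Among partner genes of neurexins and neuroligins, the secreted ligands C1ql2 and Cbln4, the receptors Lrrtm1 and Lrrtm3 and the neuroligin-binding Mdga1 were lower in GFP-positive cells. A list of 51 such genes was written by role, with earlier results of these data known, and all 51 were tested. Of them 5 were lower in GFP-positive cells (edgeR adjusted p under 0.05), where 0.870% of all tested genes were. None was higher, with 7 higher at an unadjusted p under 0.05 (10 lower; 12.6% of all tested genes in either direction) and 3 higher by DESeq2. The median log2 fold change over the 51 genes was -0.06 and that over all tested genes 0.04. Because the list was written with earlier results known, nothing is read from these counts beside the shares of all genes. The adjusted p-values of single partner genes carry the same limit.

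Of 8 cerebellin, C1q-like and delta receptor genes, 2 passed the threshold, both secreted neurexin ligands lower in GFP-positive cells. C1ql2, whose product binds neurexin 3, was at 287.6 and 422 CPM in GFP-negative and 27.5 and 17.4 CPM in GFP-positive cells (log2 fold change -3.98 ± 0.41, edgeR adjusted p = 0.0106). Cbln4, a cerebellin, was at 31.6 and 85.0 CPM in neg2 and neg6 and at 3.48 and 2.50 CPM in pos2 and pos3 (-4.28 ± 0.57, edgeR adjusted p = 0.0150). Both genes were thus far lower in each GFP-positive library.

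Of the LRRTM genes, whose leucine-rich repeat proteins are postsynaptic neurexin receptors, 2 of 4 passed the threshold, both lower in GFP-positive cells. Lrrtm1 was at 96.8 and 205 CPM in neg2 and neg6 and at 17.9 and 8.22 CPM in pos2 and pos3 (log2 fold change -3.53 ± 0.51, edgeR adjusted p = 0.0197). Lrrtm3 was at 28.9 and 57.6 CPM against 4.66 and 6.62 CPM (-2.94 ± 0.47, edgeR adjusted p = 0.0293). Lrrtm2 was also lower without overlap but did not pass, at 50.7 and 106 CPM against 23.1 and 7.78 CPM (-2.34, edgeR adjusted p = 0.113). Lrrtm4 went the other way without passing, at 10.5 and 15.6 CPM against 37.2 and 21.7 CPM (1.18, edgeR adjusted p = 0.3045). Of the MDGA genes, whose products bind neuroligins and block their contact with neurexins, Mdga1 fell from 130 ± 67.3 to 26.8 ± 2.47 CPM (-2.28 ± 0.41, edgeR adjusted p = 0.0427) while Mdga2, the other gene of that role, did not pass. All 5 calls were lost without neg6 and without pos3, where the edgeR counts of partner calls were 0, with 8 and 7 lower at an unadjusted p under 0.05. Without pos2, C1ql2 and Lrrtm1 still passed (edgeR adjusted p = 0.0364 and 0.0415), while Cbln4 (0.0697), Lrrtm3 (0.1096) and Mdga1 (0.1278) did not. The amacrine marker sums were also lower in the GFP-positive libraries, as were those of 8 retinal ganglion cell markers (287 and 344 against 206 and 91.9 CPM). Pax6, by itself, overlapped between the fractions. Sums of 8 bipolar markers (1089 and 435 against 1331 and 1833 CPM) and of the rod markers were higher, while those of 8 cone markers (386 and 42.2 against 365 and 704 CPM) overlapped. The part of these in the differences was not tested.

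No gene of the other roles passed in the edgeR fit. Of 10 other neurexin-binding surface protein genes 0 passed, and Igsf21, an immunoglobulin protein known as a partner of neurexin 2, had the highest level per kb, at 130 ± 11.4 and 139 ± 50.6 CPM (edgeR adjusted p = 0.943). Of 6 presynaptic scaffold genes 0 passed, Lin7c standing at 339 ± 39.5 and 229 ± 102 CPM (edgeR adjusted p = 0.600). Of 15 postsynaptic scaffold genes 0 passed, Dlg3 standing at 210 ± 40.4 and 177 ± 95.7 CPM (edgeR adjusted p = 0.862). Of 4 genes of neurexin splicing and neuroligin shedding 0 passed, Khdrbs3, an RNA-binding regulator of neurexin splicing, standing at 332 ± 46.1 and 301 ± 85.8 CPM (edgeR adjusted p = 0.918). The fractions did not overlap for 6 of 6 presynaptic scaffold genes, 5 of them with lower estimates in GFP-positive cells. In the order above, the other roles had 4 of 10, 7 of 15 and 1 of 4 such genes, against 43.8% of all tested genes. Nothing is read from these counts, for the reason given for the list.

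**Figure D4:**
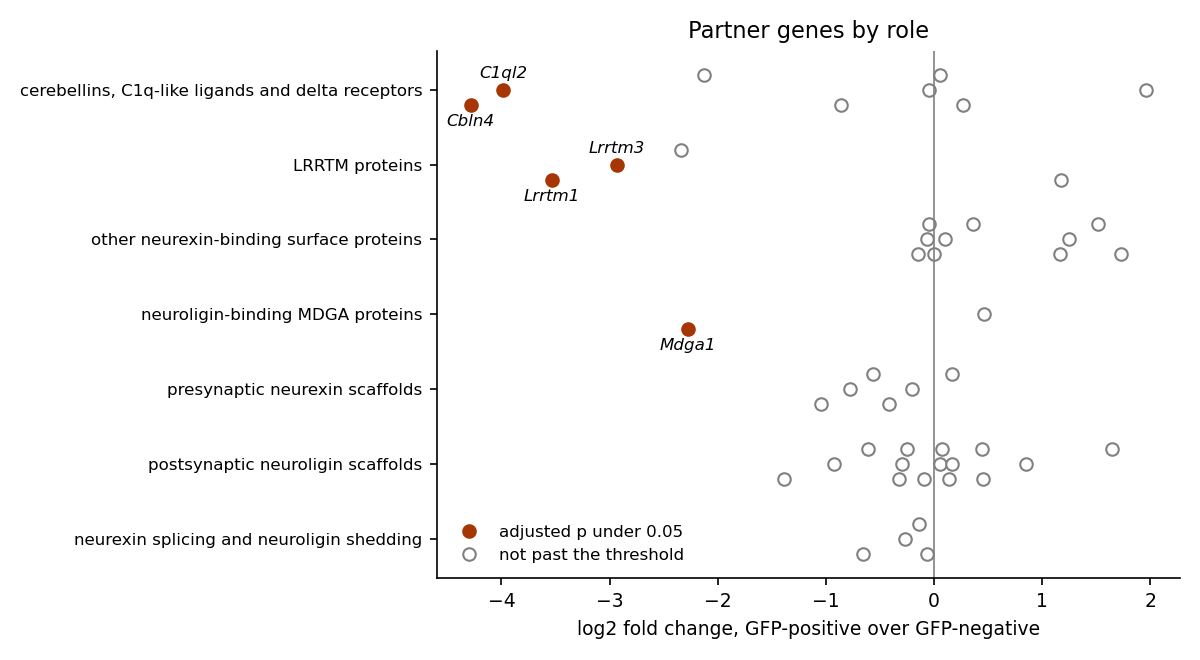
Log2 fold changes, GFP-positive over GFP-negative, of the partner genes in the roles described in the text, 1 point per gene. The 5 filled points passed an edgeR adjusted p of 0.05 and all lie below 0: C1ql2, Cbln4, Lrrtm1, Lrrtm3 and Mdga1.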

How the data were processed

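The authors deposited raw read counts per Ensembl gene for 4 libraries. The submitters' processing notes list Trimmomatic, STAR 2.7.3a, MultiQC and limma, and GRCm38 as the build, without saying what each did. No counting tool or annotation is given in the sources used here. A second deposited table of rescaled counts was not used here. Groups came from the fluorescence in the labels. Per the series text, each animal gave 1 sample of each fraction, the 4 biological replicates came from 3 litters, and RNA came from 750 to 2500 cells. The sources used here do not say whether the 2 libraries numbered 2 share an animal.

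The test was edgeR 4.0.16 (R 4.3.3) on the counts, with TMM scaling, filterByExpr (minimum count 10, minimum total 15), robust glmQLFit without the legacy option and glmQLFTest, with Benjamini-Hochberg adjustment over 17940 of 27925 genes with a count. There were 2 residual degrees of freedom. An exact permutation test of 2 against 2 libraries cannot reach 0.05. Exon lengths and coordinates came from GENCODE vM21 (55230 of 55471 gene IDs matched), promoters from RefSeq (GRCm38.p6). On simulated data of 17940 genes, edgeR found 6% of the genes given a 2-fold change in this comparison, 58% of those given 4-fold, 76% of those given 8-fold and 88% of those given 16-fold, with 0 false calls; DESeq2 1.42.0 made 60 false calls and limma-voom 0. The simulated counts were drawn independently around the dispersion trend, with changes given only to genes above a low mean count. They held no shift of rod or amacrine RNA between libraries, so these rates may not hold for the real libraries. Alternatives were other scalings and filters, DESeq2, limma-voom 3.58.1, leaving out each library, leaving out rod, red blood cell and mitochondrial genes, and, chosen after seeing the data, a legacy quasi-likelihood fit.

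The members, partner genes and marker lists were chosen with earlier results of these data known. Named are all members, each partner past the threshold, the partner of each role with the highest CPM per kb, and the 3 genes most like each of the 3 members with the largest difference, with Gbx2 as the check of the labels. Lrrtm2, Lrrtm4 and Mdga2 are named as the other genes of their roles. For 1 role the highest partner is not reported here, and that role is left out of the plot of partner genes. Fam19a1 to Fam19a4 of the partner list stand in the table as Tafa genes.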

Additional observations from a re-analysis of the deposited data

How the results depend on the processing

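Against 198 genes called in all, edgeR called 48 in a legacy quasi-likelihood fit and 107 with no filter, limma-voom 131 and DESeq2 794; leaving out a library gave 1 (without GFP-negative replicate 6) to 339 (without GFP-negative replicate 2). Against 5 partner calls, the same 4 settings gave 1, 3, 2 and 11, and leaving out a library 0 to 6. Of the 5 named genes, C1ql2 passed in the legacy fit, C1ql2, Lrrtm1 and Cbln4 with no filter, and C1ql2 and Lrrtm1 with limma-voom. Nxph1 kept its direction in all 13 alternatives. Nrxn2, Nrxn3, Nxph4, Nlgn1 and Nlgn3 stayed below 0 in each of 13 alternatives. Nxph3 turned negative without GFP-negative replicate 6 (-0.63) and without GFP-positive replicate 3 (-0.55), and was 1.67 without GFP-negative replicate 2; Nxph2 was not fitted, and Nxph3 not under a filter of over 5 CPM in at least 2 libraries. Scaling by total count alone moved the median of all genes from 0.039 to 0.206 and Nrxn3 from -0.30 to -0.12. No paired analysis was possible because the fractions share only replicate number 2. At this depth the Nxph2 counts of 0 allow up to 3 counts per library.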

Other observations

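Several partner genes, chosen here after their values were seen, had separate fractions without passing the edgeR threshold. Grid1, a delta glutamate receptor that cerebellins bind, was at 3.20 (replicate 2) and 2.82 CPM (replicate 6) in GFP-negative cells and at 13.8 (replicate 2) and 9.74 CPM (replicate 3) in GFP-positive cells (edgeR adjusted p = 0.179). Tafa1, a secreted neurexin-binding protein gene, was at 32.6 and 63.9 CPM against 168 and 106.5 CPM (edgeR adjusted p = 0.168). In the other direction, Cbln2, a cerebellin gene, was at 27.9 and 62.5 CPM against 10.3 CPM in both GFP-positive libraries (edgeR adjusted p = 0.0789). Separate fractions were seen for 27 of 51 partner genes (52.9%), against 43.8% of all tested genes.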
